A study of Mus musculus with 15 samples.

Results

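The comparison of Maged1-cKO with control thalamus after saline rests on the 8 libraries titled as saline-injected, 4 control and 4 cKO, of the 14 libraries analysed here and the 15 samples of the series. In cKO mice a floxed Maged1 is inactivated by Cre from a Vglut2-Cre driver, so the deletion is confined to Vglut2 glutamatergic neurons and their descendants, and other cells of the thalamus keep the gene. Controls were titled Maged1 WT and tagged Maged1 Loxp where tag and title agree, and the study's methods describe the controls of cKO males as floxed littermates, so both groups carry the floxed allele. The mice were 2 to 4 months old, and both groups received saline on the 3 days of habituation and on the 5 days of injection, without cocaine. Whole thalamus was dissected and not sorted, so the RNA of all its cells was read together.

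Maged1 belongs to the MAGE family, adaptor proteins that bind ubiquitin ligases or deubiquitinases and steer them to their targets. Usp7, a deubiquitinase that acts among others on histone H2A, is one such partner. The thalamus is built mainly of Vglut2 projection neurons; it borders the ventricle, whose wall is lined by multiciliated ependymal cells and bears choroid plexus, with the habenula above and the hypothalamus below.

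The authors deposited TPM, a relative transcript level corrected for gene length, here divided by a scaling factor per library and called scaled TPM. The factors ran from 1.0678 to 1.2159 in the 8 saline libraries, and the listed genes summed to between 312659 and 348913 deposited TPM. Depth is not kept in TPM. The genotype tag names the other genotype for control replicates 3 and 4 (Maged1cKO) and for cKO replicates 1 and 2 (Maged1 Loxp), and the groups used here follow the titles. A gene is called where its log2 change was 0.5 or more in size and its limma p-value, adjusted by Benjamini-Hochberg, was below 0.05, and separated where the 4 cKO values lie all above or all below the 4 control values. Replicates are separate samples by their labels.

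Maged1 itself was lower in cKO. Its scaled TPM was 153, 167, 150 and 151 in control and 77.4, 76.6, 68.2 and 64.6 in cKO, in the order of the replicates. Each cKO library therefore lay below each control library, as the titles and not the tags would have it. The means were 155 ± 7.99 and 71.7 ± 6.29 (SD, n = 4), so that cKO thalamus held 46.1% of the control level, a log2 change of -1.11 (SE 0.10, limma adjusted p = 0.00116). The exact two-sided permutation p was 0.0286, the smallest that 4 against 4 allows. The value covers the whole gene, and transcripts of other cells and of exons outside the deleted part count in it. Maged1 (ENSMUSG00000025151.16) lies at chrX:94535474-94542143 on the minus strand of GRCm38, and the 3 tested genes nearest to it on each side did not pass the test. Their log2 changes were -0.02 for Klhl15, 0.09 for Apoo, 0.03 for Gm14827, -0.08 for Gspt2, -0.02 for Zxdb and -0.01 for Zxda.

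Few genes were called. Of 13471 genes tested, 6, with Maged1 among them, were called lower (0.0445%) and 1 higher (0.00742%). Without the fold minimum, 15 genes were lower (0.111%) and 9 higher (0.0668%) at an adjusted p-value under 0.05. All 24 were separated, but so were 868 genes lower (6.44%) and 832 higher (6.18%) in the whole table, and before adjustment 1135 lower and 1121 higher genes had a p-value below 0.05. Changes were small, with a median absolute log2 change of 0.078 over all tested genes.

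Vat1, a membrane protein of the oxidoreductase fold first described in synaptic vesicles, had 37.98, 42.3, 35.8 and 34.4 scaled TPM in control and 22.8, 23.5, 26.7 and 23.4 in cKO. It fell by 0.63 on the log2 scale (SE 0.08, adjusted p = 0.0056). Wdr6, a WD-repeat protein linked to tRNA methylation, had 75.4, 83.4, 75.1 and 69.8 scaled TPM in control and 47.0, 50.1, 56.9 and 44.5 in cKO. It fell by 0.61 (SE 0.07, adjusted p = 0.0056). In both genes cKO replicate 3 was the highest of its group and still below every control library.

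Spint2, a Kunitz-type inhibitor of serine proteases, had 19.5, 14.3, 11.1 and 13.7 scaled TPM in control and 6.99, 7.68, 9.15 and 7.74 in cKO, and fell by 0.83 (SE 0.13, adjusted p = 0.0276). Radil, an effector of Rap GTPases in cell adhesion, had 3.79, 4.44, 4.08 and 3.98 scaled TPM against 2.31, 2.72, 3.18 and 2.68, and fell by 0.51 (SE 0.09, adjusted p = 0.0449). Kcna1, a voltage-gated potassium channel subunit of axons, was the gene called higher. It had 17.5, 15.5, 18.8 and 18.1 scaled TPM in control and 29.5, 24.2, 25.2 and 24.5 in cKO, and rose by 0.55 (SE 0.10, adjusted p = 0.0473). The 4 control values of Kcna1 spanned a narrower range than the gap to the cKO values.

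Oxt, which encodes the neuropeptide oxytocin of hypothalamic neurons, had by far the largest change among the called genes. Its scaled TPM was 101, 180, 182 and 87.7 in control and 2.34, 2.57, 24.4 and 0.578 in cKO, a log2 change of -5.07 (SE 0.77, adjusted p = 0.0177). The neighbouring Avp, which encodes vasopressin, was separated in the same direction but did not pass the test. Its scaled TPM was 69.7, 74.0, 43.7 and 16.4 in control and 2.00, 3.93, 11.0 and 0.760 in cKO, with a log2 value of -3.64 (SE 0.65, adjusted p = 0.0521). cKO replicate 3 was the highest cKO library for both genes.

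**Figure D1:**
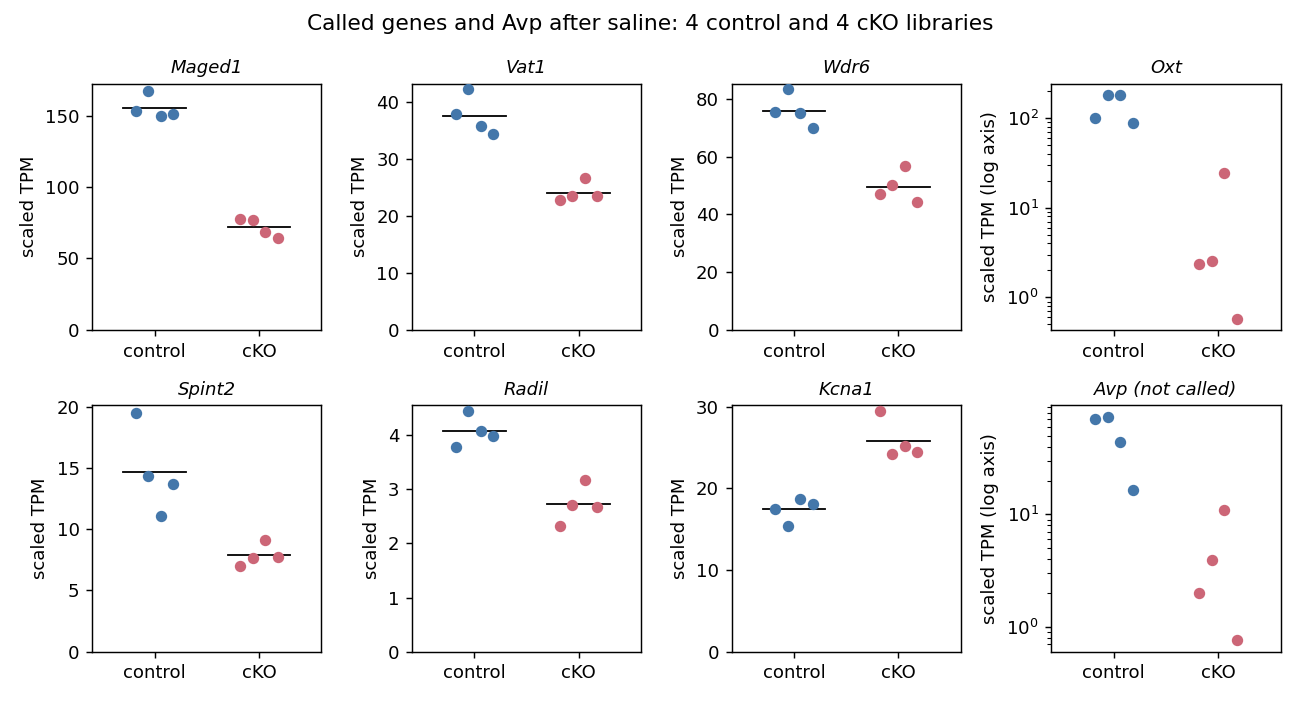
Scaled TPM (vertical axis; a log axis for Oxt and Avp, axes from 0 for the others) of the 7 called genes and of Avp in the 4 control and 4 cKO saline libraries. Points are libraries in the order of the replicates and bars are group means; the groups do not overlap in any panel, with Maged1 between 150 and 167 in control and between 64.6 and 77.4 in cKO.

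On GRCm38 the called genes lie on 7 chromosomes: Vat1 at chr11:101458745-101466230, Wdr6 at chr9:108572311-108578739, Oxt at chr2:130576173-130577054, Spint2 at chr7:29256323-29281912, Radil at chr5:142484839-142551098 and Kcna1 at chr6:126640397-126646384. All are protein-coding genes. Vat1 shares 1232 bases of its span with Rnd2, and Wdr6 shares 464 bases with Dalrd3, each on the opposite strand. The libraries were stranded, but whether the counting used strand is not given in the sources used here, so these levels carry that uncertainty.

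Maged1, Vat1 and Wdr6 were called in each of the 8 fits that left out a saline library, but with TPM as deposited, unscaled, Vat1 (log2 value -0.58) and Wdr6 (-0.56) each had an adjusted p of 0.0654. Oxt and Spint2 were called in 3 of the 8 each, Radil in 1 and Kcna1 in 0, all with an unchanged sign. Without cKO replicate 3, 20 genes were called lower and 2 higher; without cKO replicate 1, cKO replicate 2 or control replicate 2, 3 were called lower and 0 higher. Grouped by the genotype tags, or in the 4 saline libraries whose tag and title agree, limma called 0 genes, with 299 and 1084 genes at an unadjusted p-value under 0.05.

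Of the genes with an adjusted p-value under 0.05 and a change under the fold minimum, 8 were higher and 9 lower. Among the higher, Pcdh9, a non-clustered protocadherin, had 35.9, 35.1, 37.05 and 35.2 scaled TPM in control and 50.1, 45.4, 46.5 and 45.1 in cKO, and rose by 0.38 (SE 0.04, adjusted p = 0.00457). Kctd16, an auxiliary subunit of GABA-B receptors, rose by 0.44 (SE 0.05, adjusted p = 0.0056). Gria3, an AMPA receptor subunit, had 16.6, 14.2, 16.4 and 15.3 scaled TPM in control and 22.9, 20.2, 20.3 and 19.8 in cKO, and rose by 0.40 (SE 0.06, adjusted p = 0.0158). The others were Slc8a1, a sodium-calcium exchanger (0.22), Lrrc8b, a volume-regulated anion channel subunit (0.36), Cdk19, a Mediator kinase (0.32), Acap2, an Arf GTPase-activating protein (0.25), and Tmeff1, a transmembrane protein (0.25).

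Among the lower genes, Tppp3, a tubulin-binding protein of multiciliated cells and some neurons, had 41.2, 41.5, 41.2 and 41.2 scaled TPM in control and 27.4, 31.1, 31.4 and 32.2 in cKO, and fell by 0.43 (SE 0.06, adjusted p = 0.00993). Pcsk1n, which encodes the prohormone convertase inhibitor proSAAS, had 212, 190, 189 and 176 scaled TPM in control and 139, 148, 141 and 155 in cKO, and fell by 0.39 (SE 0.06, adjusted p = 0.0161). Celf4, an RNA-binding protein of neurons, fell by 0.41 (SE 0.06, adjusted p = 0.0148), and Bex1, a small X-linked protein of brain, by 0.45 (SE 0.06, adjusted p = 0.0148). The others were Prag1 (-0.42), Sgsm1 (-0.37), Mgst1 (-0.36), Pcbd1 (-0.26) and P4htm (-0.18), and P4htm is the next gene to Wdr6 on chromosome 9.

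**Figure D2:**
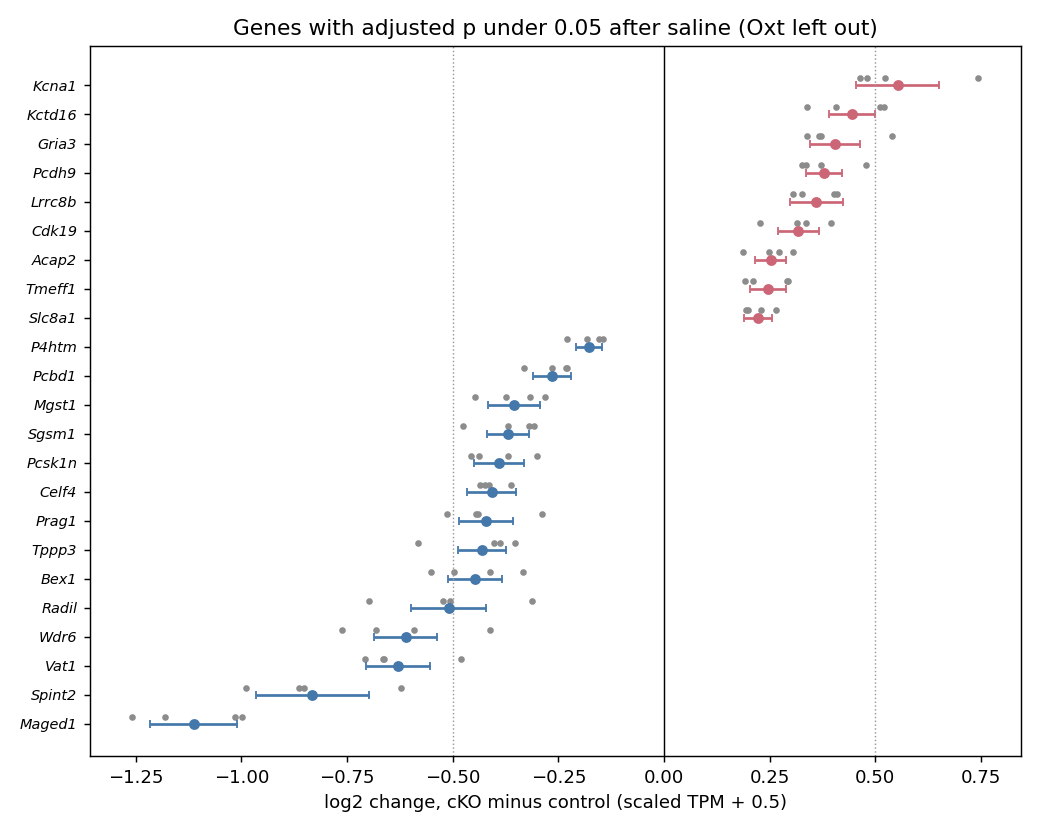
Log2 change of cKO against control after saline (horizontal axis, scaled TPM + 0.5) for 23 of the 24 genes with an adjusted p-value under 0.05, Oxt being off the scale. Coloured points are estimates with their SE, grey points the 4 cKO libraries relative to the control mean, and dotted lines mark 0.5; all 4 grey points lie on the same side of 0 for each gene, from P4htm (-0.18) to Maged1 (-1.11).

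Base composition and length differed between the directions. The 9 higher genes had a median GC content of 44.9% and a median length of 5807 bases for their longest transcript, against 57% and 2766 bases for the 15 lower genes and 49.7% and 3424 bases for all tested genes. Over all tested genes, the median log2 value was 0.0415 in the fifth lowest in GC and -0.0444 in the fifth highest. With spline trends on GC and length removed from each library, an alternative chosen after seeing the data, 3 genes were higher and 10 lower at an adjusted p-value under 0.05, 13 of the 24 among them. Vat1, Wdr6, Oxt, Spint2 and Maged1 were still called, while Kcna1 (log2 value 0.56, adjusted p = 0.0617) and Radil (-0.46, adjusted p = 0.088) were not.

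The MAGE family and the H2A deubiquitinases answer whether partners and relatives of Maged1 moved with it. Usp7 had 18.4, 19.2, 20.4 and 19.5 scaled TPM in control and 20.5, 20.3, 19.8 and 19.6 in cKO, with a log2 value of 0.05 (SE 0.04, adjusted p = 0.534), so its groups overlapped. Of 14 H2A deubiquitinases and cofactors tested of 15, none passed the test, and their median log2 value was 0.03. Usp16, a nuclear H2A deubiquitinase at 0.12 (adjusted p = 0.353), was the 1 separated gene of the 14. That is 7.14%, near the 6.18% of all tested genes separated higher. Of 33 Polycomb subunits tested of 36, none passed, with a median of -0.02, and the H2A ubiquitin ligases Ring1 and Rnf2 had -0.16 and 0.01.

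All 9 measured MAGE genes had a lower mean in cKO, and 6 were separated (66.7%, against 6.44% of all tested genes lower). Both counts include Maged1, the inactivated gene, whose fall is set by the design. Of the 9, only Maged1 passed the test. Their median log2 value was -0.17. Maged2 had 22.6, 23.5, 22.1 and 21.6 scaled TPM in control and 21.1, 19.7, 21.2 and 19.9 in cKO, a log2 value of -0.13 (SE 0.04, adjusted p = 0.163). Ndn, which encodes necdin, had 136, 148, 116 and 115 scaled TPM against 108, 100, 96.8 and 93.8, a log2 value of -0.36 (SE 0.17, adjusted p = 0.311). Maged2 control and cKO values differed by less than 1 scaled TPM at their nearest, and those of Ndn by less than 10.

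The tissue label was met: in each of the 8 libraries Tcf7l2 and Slc17a6, markers of thalamic projection neurons, stood at 69.3 scaled TPM or more. Slc17a6, which encodes Vglut2, had 90.4, 69.3, 104 and 89.7 scaled TPM in control and 85.0, 76.8, 98.6 and 72.2 in cKO, with a log2 value of -0.08 (SE 0.13, adjusted p = 0.808). Of the 23 projection neuron markers, none passed the test, 12 were higher and 11 lower, and the median was 0.03. They did not move as a block. Rora and Prkcd, markers of sensory relay nuclei, had log2 values of 0.38 and 0.46. Calb2, which encodes calretinin and is strong in midline nuclei, had 120, 136, 131 and 125 scaled TPM in control and 44.6, 65.4, 103 and 63.1 in cKO, a log2 value of -0.95 (SE 0.21, adjusted p = 0.0763), or -1.16 without cKO replicate 3 (adjusted p = 0.0174). Gbx2, also a midline gene in the adult, had 13.03, 15.2, 18.3 and 15.8 against 7.81, 9.21, 12.4 and 9.17, a log2 value of -0.67 (adjusted p = 0.122). Of the 8 tested markers of the paraventricular thalamus, none passed the test, 5 were lower and 3 higher, and the median was -0.16. Calb2 is on this list and had its lowest value, and Drd2 had a log2 value of 0.18 (adjusted p = 0.588). Of the 8, 2 were separated, both lower (25%, against 6.44% of all tested genes lower). The summed level of the list overlapped between control (277.3 to 312.3 scaled TPM) and cKO (205.6 to 290.4).

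Genes of motile cilia, the beating organelles of ependymal cells, had lower levels in cKO across all the parts of the organelle that were listed. Of 135 symbols on 8 lists, 129 were in the files and 121 of these had a lower mean in cKO, 6 a higher one, and 2 were at 0 in both groups. Of the 83 that were tested, Tppp3 alone passed the test, 60 had an unadjusted p-value under 0.05, all lower, and 59 (71.1%, against 6.44% of all tested genes) were separated, all lower. The median log2 value of the 83 was -0.63, against 0.00243 over all tested genes. Many of them passed the filter through the control libraries, which favours lower values among the genes tested: 77 of the 83 had at least 1 TPM in 3 or more control saline libraries and 46 in 3 or more cKO saline libraries. The counts and the median are therefore a description of the genes tested. The 10 of the 83 with a mean of at least 5 TPM over all libraries had a median of -0.26, and 5 of them were separated, while a pseudocount of 0.1 gave -0.86 for the 83. In bulk tissue, fewer cells of a type and less RNA per cell cannot be told apart.

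The motors of the axoneme were lower throughout. All 14 dynein and docking genes had negative log2 values, with a median of -0.60, and 13 were separated. Dnah1, a dynein heavy chain, had 1.11, 1.601, 1.29 and 1.29 scaled TPM in control and 0.386, 0.736, 0.479 and 0.738 in cKO, a log2 value of -0.76 (SE 0.20, adjusted p = 0.11), and Dnah5 had -0.56. Dnah6 had 1.82 to 1.92 scaled TPM in control and 0.123, 1.05, 0.793 and 1.06 in cKO. The cKO values varied more than the control values, with replicate 1 far below the others. Of the 7 dynein assembly factors, Dnaaf3 was at -0.79 and Dnaaf2 at -0.12, with a median of -0.18.

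Structural parts gave the same picture. Radial spoke genes had a median of -0.57, and Rsph9 had 7.50, 6.39, 6.07 and 5.06 scaled TPM in control and 2.63, 3.29, 3.73 and 4.44 in cKO, at -0.75 (SE 0.20, adjusted p = 0.114). Rsph1 was at -0.76 and Rsph3a at -0.08. The nexin-dynein regulatory complex and its rulers had a median of -0.58, with Ccdc39 at -0.12 and Ccdc40 at -0.70, and the central pair genes one of -0.52, with Hydin at -0.74 and Spag6l at -0.67 (adjusted p = 0.0858). Tektins and doublet proteins had a median of -0.81, with Tekt1 at -0.75 and Tekt2 at -0.16. Cfap52 of that list had 1.66, 1.02, 1.14 and 1.17 scaled TPM in control and 0.0658, 0.497, 0.383 and 0.510 in cKO, at -1.04 (SE 0.24, adjusted p = 0.0783). Most of these genes lay near 1 scaled TPM, where the added 0.5 makes log2 differences smaller than they are.

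Foxj1, the transcription factor that switches on the motile cilium programme, had 8.32, 7.38, 6.86 and 6.71 scaled TPM in control and 2.36, 4.75, 3.62 and 5.44 in cKO, a log2 value of -0.83 (SE 0.26, adjusted p = 0.152). Rfx2, of the RFX factors that bind X-box motifs in cilium promoters, was at -0.55 (adjusted p = 0.161), while Rfx3, of the same family, was at 0.05 (adjusted p = 0.926). These were the 3 regulators tested, with a median of -0.55, and their summed level overlapped between control (13.47 to 16.14 scaled TPM) and cKO (7.059 to 15.31). Other genes of multiciliated cells had a median of -0.77, with Ak7 at -0.98, Ak8 at -0.59 and Tmem212 at -1.46. The 30 genes of transport in primary cilia, which most cells bear, had a median of -0.06, none passed the test, and Ift20 and Ift22 were at 0.08 and -0.31.

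cKO replicate 1 was the lowest of the 8 saline libraries for 74 of the 83 motile cilium genes, against 16% of all tested genes. The summed level of the lists was 278.5, 294.0, 274.1 and 276.0 scaled TPM in control and 134.3, 203.3, 192.2 and 212.5 in cKO, so the other cKO libraries also lay below every control library. Without cKO replicate 1, 59 genes were separated, a count that cannot fall when a library is left out. The share of all tested genes separated without that library was not computed, so the count cannot be weighed. Without cKO replicate 1 the median log2 value of the 83 genes was -0.48. By the genotype tags it was 0.10.

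**Figure D3:**
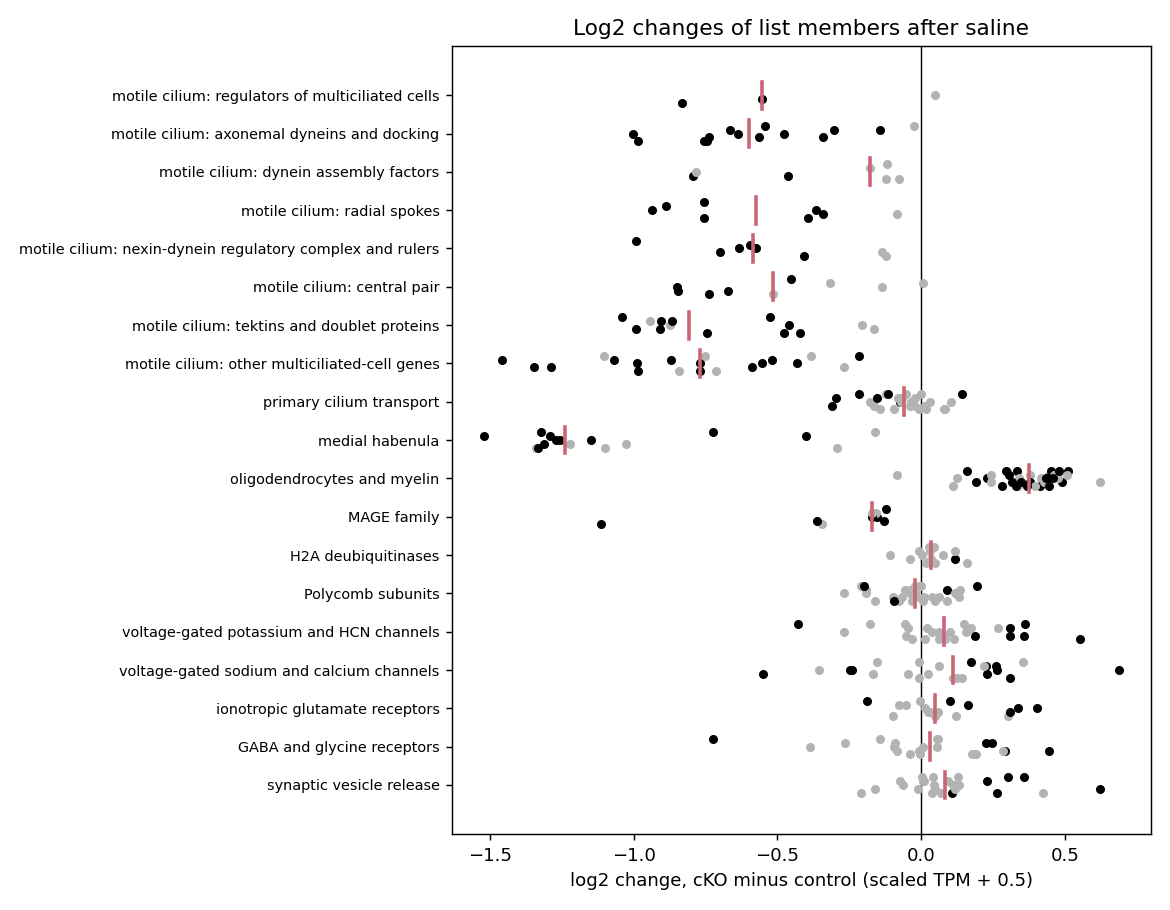
Log2 change of cKO against control after saline (horizontal axis, scaled TPM + 0.5) for the tested members of 19 lists; black points are genes separated between the groups, grey points are not, and red bars are list medians. Members of the motile cilium lists and the medial habenula lie mostly below 0 and myelin genes above 0, with medians of -1.24 for the habenula and 0.37 for myelin, while primary cilium transport sits near 0 at -0.06.

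The promoters of motile cilium genes share sequence that the lists did not use, and a few are shown to make this visible. RefSeq promoters on GRCm38.p6, from 250 bases before to 50 after the start, were found for 70 of the 83 tested genes. The letters GTTGCC, an arm of the X-box, occurred on either strand in 35 of these (50%), against 15.1% of the 10537 tested genes with a promoter. They also occurred in 13 of the 26 primary cilium transport genes with a promoter (50%). The forkhead core TGTTTAC occurred in 4 of the 70 (5.71%), against 3.08% of all. The median log2 value was -0.63 for motile cilium genes with GTTGCC and -0.64 for those without it, so the letters did not separate genes by their change. The 250 bases before the start are given 5′ to 3′, with GTTGCC and its reverse complement in capitals. They are shown for 3 listed genes that hold either there, taken by smallest adjusted p-value outside a chromosome that was left out. The 3 are Kif9 (chr9:110476744-110476993), a kinesin, Sntn (chr14:13670626-13670875), the cilium tip protein sentan, and Spag16 (chr1:69826720-69826969), a central pair protein, all on the plus strand.
Kif9: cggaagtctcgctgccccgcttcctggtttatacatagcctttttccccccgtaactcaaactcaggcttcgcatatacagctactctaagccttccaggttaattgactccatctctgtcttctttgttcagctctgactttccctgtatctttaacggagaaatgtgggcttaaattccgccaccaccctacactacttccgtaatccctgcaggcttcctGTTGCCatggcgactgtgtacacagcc
Sntn: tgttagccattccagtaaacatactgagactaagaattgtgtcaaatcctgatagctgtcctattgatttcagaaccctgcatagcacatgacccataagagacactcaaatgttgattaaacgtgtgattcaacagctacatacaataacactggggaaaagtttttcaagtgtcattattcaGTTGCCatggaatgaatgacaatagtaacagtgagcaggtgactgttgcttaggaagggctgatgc
Spag16: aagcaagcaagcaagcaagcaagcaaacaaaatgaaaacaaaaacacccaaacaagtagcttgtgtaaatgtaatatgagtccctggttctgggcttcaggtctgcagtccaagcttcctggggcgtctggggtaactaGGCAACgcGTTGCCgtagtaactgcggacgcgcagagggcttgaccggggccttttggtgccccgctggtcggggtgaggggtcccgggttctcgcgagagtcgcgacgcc

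Kif9 had 1.52 to 1.70 scaled TPM in control and 0.630, 1.28, 1.05 and 1.05 in cKO, a log2 value of -0.52 (SE 0.14, adjusted p = 0.113). Sntn was at -0.87 and Spag16 at -0.85. The capitals mark letters only, and binding at these places was not measured here.

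Markers of the medial habenula, a cholinergic and peptidergic nucleus above the thalamus, were also lower. Of 18 markers, all in the files, 16 had a lower mean in cKO and 16 were tested. None passed the test, 9 had an unadjusted p-value under 0.05 and 10 (62.5%, against 6.44% of all tested genes lower) were separated, all lower. The median log2 value was -1.24. Slc18a3 and Chat, which load and make acetylcholine, share a locus, so the level of each is uncertain. Chat had 1.22 to 2.00 scaled TPM in control and 0.0252 to 0.438 in cKO. Slc18a3 had 1.75, 1.45, 1.57 and 2.64 in control and 0.119, 0.367, 0.346 and 0.427 in cKO, a log2 value of -1.52 (SE 0.47, adjusted p = 0.141). Chrnb4, a nicotinic receptor subunit, had 3.19, 3.43, 3.16 and 4.55 against 0.664, 1.67, 1.33 and 1.89, a log2 value of -1.15 (adjusted p = 0.249). The peptide gene Tac2 had 21.6, 22.1, 17.6 and 26.9 against 4.67, 9.64, 5.80 and 17.8, and its groups overlapped by 1 library. The orphan receptor gene Gpr151 was at -1.22 (adjusted p = 0.413).

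The habenula markers varied between libraries in step with each other. cKO replicate 1 was the lowest saline library for 15 of the 16 genes, against 16% of all tested genes. Control replicate 4 was the highest for 14, and the share of all tested genes highest there was not computed. The summed level was 145.2, 140.1, 130.8 and 175.2 scaled TPM in control and 52.74, 89.77, 76.18 and 118.7 in cKO, with no overlap. Without cKO replicate 1 the median log2 value was -0.93, in the libraries whose tag and title agree it was -0.81, and by the genotype tags it was 0.28. Of the 16 genes, 12 had at least 1 TPM in 3 or more cKO saline libraries and 16 in 3 or more control saline libraries, so this list too is a description of the genes tested.

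Choroid plexus markers stood apart in a single library. Their summed level was 1529 scaled TPM in control replicate 1, 31.52, 31.68 and 72.46 in the other control libraries, and 10.94, 21.27, 16.23 and 57.33 in cKO. Ttr, the thyroxine carrier of choroid plexus, gave most of it, with 1412 in control replicate 1 and between 1.53 and 51.1 elsewhere. Clic6, a further choroid plexus gene, was at -1.33 (adjusted p = 0.184). None of the 9 tested of 22 markers passed the test, and 5 (55.6%, against 6.44% of all tested genes lower) were separated, all lower. Of the 9, 4 had at least 1 TPM in 3 or more cKO saline libraries against 9 in control. The summed and the mean log2 level of the list both overlapped between the groups. The median log2 value of the markers was -1.22 with, and -0.70 without, control replicate 1. The same library was highest for meningeal fibroblast markers, with 49.07 scaled TPM in sum against 12.07 to 17.52 in the others; of 6 tested, none passed, the median was -0.36, and Dcn and Col1a1 were at -0.38 and -0.34.

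Of 31 hypothalamic markers, 30 had a lower mean in cKO and 17 were tested. Oxt passed the test, 7 were separated (41.2%, against 6.44% of all tested genes lower), all lower, and the median log2 value was -0.69. Of the 17, 16 had at least 1 TPM in 3 or more control saline libraries and 12 in 3 or more cKO saline libraries. These counts too are a description of the genes tested. The summed level of the list overlapped between control (183.8 to 591.1 scaled TPM) and cKO (45.02 to 200.1). Trh, which encodes thyrotropin-releasing hormone, had 6.36, 7.95, 5.20 and 3.50 scaled TPM in control and 3.14, 2.43, 1.46 and 1.09 in cKO, a log2 value of -1.33 (SE 0.30, adjusted p = 0.0783). Peptides of the lateral hypothalamus followed other libraries: Pmch had 50.7, 104, 13.8 and 17.3 in control and 106, 54.7, 0.270 and 4.02 in cKO. Hcrt had 91.3 in control replicate 2 and 28.7 in cKO replicate 1, against 11.1 or less in the rest. Npy was the 1 tested marker with a higher mean in cKO, at 0.92 (adjusted p = 0.232). The library with most Oxt in cKO, replicate 3, was the cKO library with least Pmch and Hcrt.

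**Figure D4:**
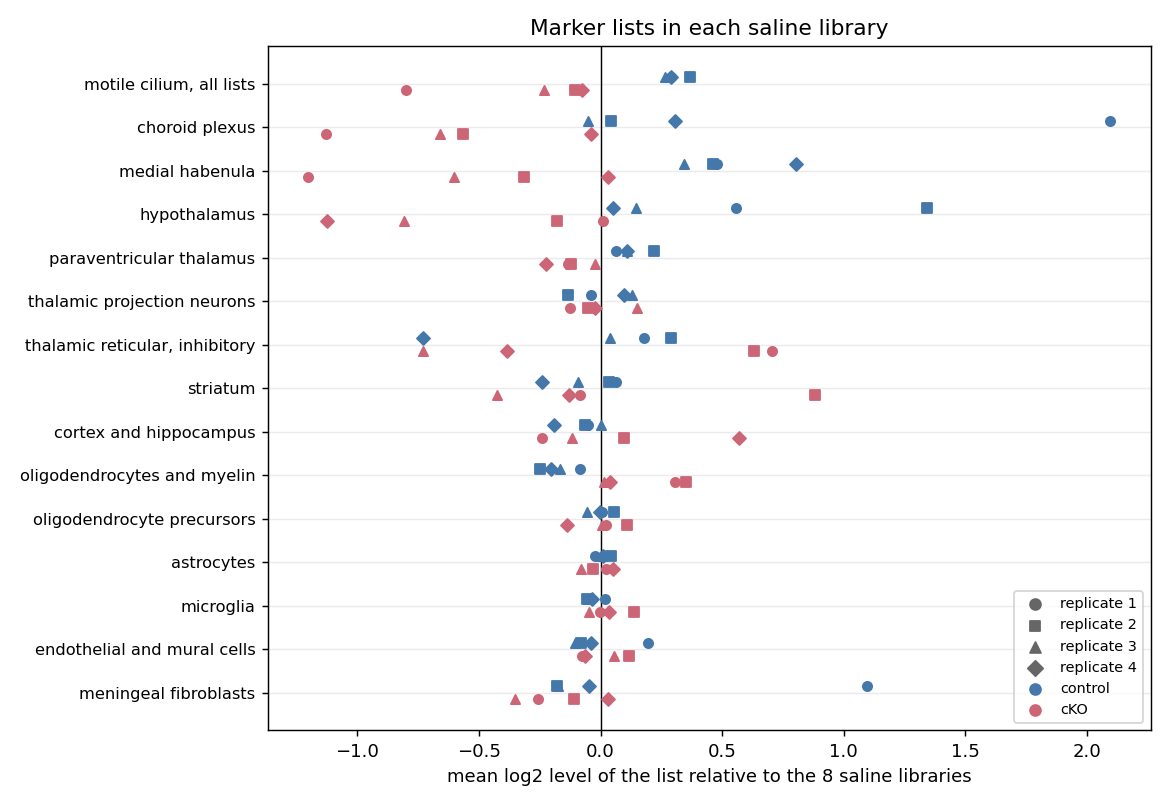
Mean log2 level of the tested members of 15 marker lists (horizontal axis, relative to the mean of the 8 saline libraries) in each control (blue) and cKO (red) library, with the marker shape giving the replicate. In this mean the groups do not overlap for motile cilium, medial habenula, hypothalamus, paraventricular thalamus and myelin. The summed levels of hypothalamus and paraventricular thalamus do overlap. Control replicate 1 stands at 2.10 for choroid plexus, and projection neurons, astrocytes and microglia overlap.

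Myelin genes were higher. All 38 genes of oligodendrocytes and myelin were tested; none passed the test, but 37 had a positive log2 value, 31 an unadjusted p-value under 0.05 and 21 (55.3%, against 6.18% of all tested genes higher) were separated, all higher. The median log2 value was 0.37. Mbp, which encodes myelin basic protein, had 856, 744, 769 and 746 scaled TPM in control and 1164, 1231, 897 and 900 in cKO, a log2 value of 0.42 (SE 0.13, adjusted p = 0.15). Mobp was at 0.51 (adjusted p = 0.124). cKO replicates 1 and 2 were above replicates 3 and 4, and replicate 1 or 2 was the highest saline library for 37 of the 38 genes. The matching share of all tested genes was not computed. Without cKO replicate 2 the median was 0.31, in the libraries whose tag and title agree, which leave out cKO replicates 1 and 2, it was 0.19, and by the genotype tags it was -0.18.

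Precursors of oligodendrocytes gave no such difference, with 4 of 8 markers higher and 4 lower, a median of -0.01, and Pdgfra and Cspg4 at -0.07 and -0.05. Astrocyte markers had a median of -0.01, with Gfap at -0.11 and Aqp4 at 0.10. Microglial markers had 0.06, with Cx3cr1 at 0.10 and P2ry12 at 0.16. Endothelial and mural markers had 0.05, with Cldn5 at -0.03 and Pecam1 at 0.05. None of the markers on these 4 lists passed the test.

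Other forebrain markers varied between libraries within the groups. Markers of reticular and other inhibitory neurons had a median of 0.20 and 0 separated genes, and were high in cKO replicates 1 and 2 and low in control replicate 4 and cKO replicate 3. Gad1, which makes GABA, had 40.5, 46.7, 35.8 and 15.9 scaled TPM in control and 81.9, 69.4, 24.7 and 37.5 in cKO, at 0.57 (SE 0.64, adjusted p = 0.709), and Gad2 was at 0.20. Striatal markers had a median of 0.13 and were highest in cKO replicate 2, where Drd1 had 2.51 scaled TPM against 0.709 to 1.35 elsewhere, and Ppp1r1b was at -0.09. Cortical and hippocampal markers had a median of 0.11 and were highest in cKO replicate 4, where Slc17a7 had 73.4 scaled TPM against 33.8 to 50.1 elsewhere. Slc17a7 (log2 value 0.35) was the 1 separated gene of the 6 tested (16.7%, against 6.18% of all tested genes higher), and Tbr1 was at 0.03. None of the genes on these 3 lists passed the test. The part of these library differences in the other results was not tested.

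Channel and synapse genes were listed beside Kcna1, Kctd16 and Gria3 to see whether their families moved with them. Of 26 potassium and HCN channel genes tested of 27, Kcna1 passed, 19 had positive and 7 negative log2 values, and the median was 0.08. Among them 6 were separated higher (23.1%, against 6.18% of all tested genes) and 1 lower (3.85%, against 6.44%). Kcna2, which joins Kcna1 in the same axonal channels, had 26.1, 25.99, 28.3 and 30.8 scaled TPM in control and 38.5, 33.1, 34.9 and 31.8 in cKO, a log2 value of 0.31 (SE 0.06, adjusted p = 0.0665). Kcnq3, of the M current, was at 0.36 (adjusted p = 0.0692) and the pacemaker channel gene Hcn2 at 0.31 (adjusted p = 0.131).

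Of 23 sodium and calcium channel genes, none passed, and the median was 0.11. Among them 7 were separated higher (30.4%, against 6.18% of all tested genes) and 3 lower (13%, against 6.44%). Scn1a and Scn8a, of sodium channels in axons, were at 0.31 and 0.26, and Scn2a, found more in unmyelinated axons, at -0.05. Scn4b had 8.78, 7.21, 11.5 and 11.6 scaled TPM in control and 18.6, 17.5, 15.7 and 12.03 in cKO, a log2 value of 0.69 (SE 0.21, adjusted p = 0.136). Cacna2d1 was at 0.23 (adjusted p = 0.0619) and Cacnb3 at -0.55 (adjusted p = 0.243).

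Of 17 ionotropic glutamate receptor genes, Gria3 passed, and the median was 0.05, with Gria1 at -0.10 and Gria2 at 0.06. Among them 5 were separated higher (29.4%, against 6.18% of all tested genes) and 1 lower (5.88%, against 6.44%). Of 22 GABA and glycine receptor genes, Kctd16 passed, and the median was 0.03, with 12 genes higher and 10 lower. Gabra2 was at -0.08 and Gabrb2 at 0.29 (adjusted p = 0.0816). Kctd8, also listed among the habenula markers, had the largest change of this list, at -0.725. Among the 22 genes, 4 were separated higher (18.2%, against 6.18% of all tested genes) and 1 lower (4.55%, against 6.44%). Of 10 non-clustered protocadherins, Pcdh9 passed and the median was 0.06, with Pcdh1 at 0.08 and Pcdh7 at 0.22. Of 26 genes of synaptic vesicle release, none passed, 6 were separated higher (23.1%, against 6.18% of all tested genes) and 0 lower, and the median was 0.08.

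Syt1, the calcium sensor of fast release, had 171, 164, 181 and 181 scaled TPM in control and 215, 204, 212 and 206 in cKO, a log2 value of 0.26 (SE 0.05, adjusted p = 0.0574). Syt2, a relative of fast-firing neurons, was at 0.62 (adjusted p = 0.363), Cplx1 at 0.30 and Snap25 at 0.23.

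Genes that report recent activity or stress did not pass the test. Of 18 immediate early genes tested of 24, the median was -0.17 and 14 were lower. Fos had 2.80, 5.49, 4.68 and 4.84 scaled TPM in control and 2.38, 1.55, 3.81 and 3.61 in cKO, a log2 value of -0.60 (SE 0.26, adjusted p = 0.276). Fosl2 was at -0.17. Glucocorticoid response genes had a median of 0.00247, with Sgk1 at 0.00 and Fkbp5 at -0.12, and clock genes one of 0.03, with Per1 at -0.20 and Per2 at -0.11. Sex-linked genes had a median of 0.01, and the Y-linked Ddx3y was at -0.05.

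The same genotype contrast in the libraries labelled cocaine ran the other way for most of these genes. In those libraries Maged1 went against the labels: scaled TPM ran from 58.5 to 87.7 in the 4 control cocaine libraries so labelled, and the pair labelled cKO cocaine had 154 and 174. The difference between the contrasts, labelled cocaine minus saline, was 2.28 for Maged1 (SE 0.16, limma adjusted p = 5.53e-05). Of all tested genes, 108 (0.802%) were called for this difference. Of the 24 genes with an adjusted p-value under 0.05 after saline, 21 had the opposite sign between the labelled cocaine groups, against 57.8% of all tested genes. The direction of that difference rests on the labels, and a result within the saline libraries does not use it.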

How the data were processed

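RNA of whole thalamus was measured in 14 libraries: 4 control saline, 4 cKO saline, 4 labelled control cocaine and 2 labelled cKO cocaine. A further cKO cocaine sample was not analysed here. The libraries were ribodepleted and stranded, with at least 20 M reads each per the labels. According to the methods and the submitters' processing notes, the authors mapped reads to GRCm38.p4/mm10 with STAR 2.5.3a, estimated transcript levels with Salmon and summarized them by gene. The authors deposited the values as TPM per gene symbol, without counts, so the depth behind a value and its counting error are unknown. In 2 of the deposited tables TPM are written with a decimal comma, read here as a point.

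TPM were divided by trimmed-mean factors (trims of 30% on log ratios and 5% on mean levels), and log2 was taken after adding 0.5, so changes of low genes are understated. A minimum of 1 TPM in 3 or more libraries left 13471 genes, which were fitted with limma 3.58.1 in R 4.3.3, all 4 groups together with an intensity trend, so the spread is shared with the cocaine libraries. The procedure was tested on simulated data. Figures were drawn with matplotlib 3.10.9 in Python 3.11.15. Coordinates are from GENCODE M21 (GRCm38), found for all but 2.29% of tested genes.

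The members, the 36 gene lists and the tests were chosen with earlier results of these data known. Genes were named by rule: Maged1, Usp7, Slc17a6, the called genes (up to 8 by p and 5 by size in each direction), the first 2 tested members of each list, up to 4 called members of each, and the 3 tested neighbours of Maged1 on each side. Other genes named, among them those with an adjusted p-value under 0.05 and a change below the minimum, were chosen after their values were seen. Groups follow the sample titles. Replicate numbers come from the titles and did not pair the samples (correlations of the deviations from the group means -0.09 to 0.10 for equal numbers). No label ties a sample to its mouse, so p-values cover the spread between samples. Alternatives covered scaling, pseudocount, filter, samples, labels, trend, replicate block, GC and length, and each saline library left out. Values of some list members are not reported here.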

Additional observations from a re-analysis of the deposited data

Results flagged for a closer look

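Of 330 group values checked, 20 (6.06%) lay far from the other 3 libraries of their group for its range (Dixon's 95% critical value), where chance gives about 1 in 20. In control replicate 1, Ttr was 1412 scaled TPM, Clic6 11.7, Col1a1 3.82, Mog 32.9 and Gm14827 1.57, and the mean log2 levels of choroid plexus and meningeal fibroblast markers were 2.10 and 1.095. In control replicate 2, Slc17a7 was 33.8, Hcrt 91.3 and Cplx1 154 scaled TPM, and in control replicate 4 Chat was 2.00. In cKO replicate 1, Rsph1 was 0.663, Ccdc39 1.75, Ak8 0.314 and Gria3 22.9, and the mean log2 levels of the nexin-dynein regulatory complex and of the central pair were -0.607 and -0.646. In cKO replicate 2 the mean log2 level of H2A deubiquitinases was 0.002, against 0.023 to 0.026 in the others. In cKO replicate 3, Oxt was 24.4 scaled TPM, and in cKO replicate 4 Slc17a7 was 73.4. The part of these libraries in the results was not tested beyond the values without each of them.

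For 26 named genes the genotype contrast differed between the libraries labelled cocaine and saline (limma interaction, adjusted p under 0.05). The log2 difference, labelled cocaine minus saline, was 2.28 for Maged1, 0.89 for Vat1, 0.87 for Wdr6, 10.41 for Oxt, 4.69 for Avp, 2.22 for Trh, 1.77 for Dnaaf3, 1.64 for Calb2, 1.15 for Kif9, 0.90 for Prag1, 0.89 for Tppp3, 0.78 for Celf4, 0.67 for Pcsk1n, 0.58 for Sgsm1, 0.55 for Mgst1 and 0.47 for Pcbd1. It was -0.29 for Slc8a1, -0.36 for Cacna2d1, -0.39 for Tmeff1, -0.40 for Acap2, -0.44 for Syt1, -0.44 for Kctd16, -0.49 for Pcdh9, -0.49 for Gabrb2, -0.58 for Kcnq3 and -0.62 for Gria3. Many of these genes were named for their saline contrast, which is part of this difference, so the count is a description. Since Maged1 goes against the labels in the cocaine libraries, these signs hold for the libraries as labelled.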

How the results depend on the processing

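Maged1 stayed called, at -1.15 to -1.06, except with the genotype tags (-0.15) and in the 4 saline libraries whose labels agree (-1.26, adjusted p = 0.213), where 2 libraries a group were left. Leaving out each saline library gave 3 to 20 genes called lower, 0 to 2 higher and a Maged1 log2 change of -1.15 to -1.07. Calls lower and higher were 2 and 1 with TPM as deposited, 23 and 4 with quantile normalization, 10 and 4 with a mean of at least 5 TPM, and 14 and 1 with the saline libraries alone. They were 0 and 0 with the tags and in the libraries whose labels agree, and 15 and 9 with no minimum fold change. No intensity trend and, chosen after seeing the data, GC and length trends removed each left 0 higher. With the replicate block they were 7 and 0, and genes called for the difference between the contrasts were 27. That difference called 17 genes with TPM as deposited, 1 with the tags and 3 in the libraries whose labels agree, against 108. By the tags, signs turned for Oxt (0.36), Radil (0.0812), Pcdh9 (-0.0176), Kctd16 (-0.0488), Tppp3 (0.0594), Celf4 (0.0325), Bex1 (0.00926), Gria3 (-0.0270), Acap2 (-0.0196), Pcbd1 (0.0402) and Tmeff1 (-0.0739). The cause was not tested. Avp passed with quantile normalization (adjusted p = 0.0422), pseudocount 1 (0.0397), a mean of at least 5 TPM (0.0314), the replicate block (0.0358), without control replicate 4 (0.0347) and without cKO replicate 3 (0.0174), and not otherwise, where its adjusted p was 0.051 to 1. Depth is unknown, which limits what can be said of genes near 1 TPM.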
